A study of Petunia x hybrida with 48 samples.

Results

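Axillary buds at node 6 were compared with axillary buds at node 3 of petunia plants (Petunia x hybrida, inbred line V26) that had been grown in hydroponics in low phosphate (low P, 5 µM) and had been given fresh high phosphate medium (high P, 250 µM) 24 h before harvest. The buds at node 6, an upper position counted from the first node after the cotyledons, made up 3 RNA-seq libraries and the buds at node 3, a lower position, made up another 3, so that the comparison used 6 of the 48 libraries of the series. The members were defined by their labels (experiment 3, high P, bud 6 or bud 3), and the comparison was chosen with earlier results of these data known. Each library was a replicate made from buds pooled over several plants, and the labels do not say whether the bud 6 and bud 3 pools came from the same plants. The plant numbers given in the paper are too few for separate plants per bud, so pools of different buds shared plants. Which pools did so is not stated, and the main fit treated all pools as independent. The question was what still distinguished the upper from the lower bud once starved plants had been resupplied. Other libraries are used beside these: bud 6 and bud 3 of plants kept in low P (5 µM) in the same experiment, buds 7 and 2 of the resupplied plants, and, from experiment 1, bud 6 and bud 3 of plants that were grown in high P (250 µM) and moved to fresh high P for 24 h. Every group had 3 libraries, and all plants were V26, with no mutant or transgene named in the labels.

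An axillary bud holds a small shoot meristem that either grows into a branch or stays dormant, and the decision depends on auxin and strigolactones from the rest of the plant, on cytokinin, on sugar supply and on abscisic acid (ABA), which is generally higher in dormant buds. Phosphate starvation reduces branching, and it also switches on a set of genes that take up and recycle phosphate, such as PHT1 phosphate transporters, purple acid phosphatases and SPX domain proteins, which in Arabidopsis sense phosphate status and hold back the starvation response when phosphate is plentiful. The expression of such genes falls again when phosphate returns.

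Values are gene counts that the authors divided by DESeq2 size factors (normalised counts). They summed to 91295000 to 95609000 per bud 6 library and 88581000 to 95310000 per bud 3 library, and the spacing of the low values gave roughly 70.1 to 84.5 M counted reads for bud 6 and 84.9 to 104 M for bud 3, so the bud 6 libraries were the shallower ones. Chlorophyll a-b binding protein genes, used as markers of expanded leaf tissue, were all detected, and the 7 of them summed to 73241 to 128157 normalised counts in bud 6, against 109897 to 204122 in bud 3. The 5 epidermis genes (protodermal factor 1 and 3-ketoacyl-CoA synthase 6) summed to 147949 to 156584 in bud 6, against 146131 to 164484 in bud 3, and the 21 vascular genes (laccases, lignin enzymes and VASCULAR-RELATED NAC-DOMAIN 6) to 18299 to 19850 in bud 6, against 18101 to 21463 in bud 3. No member of these 3 lists was called by limma (0, 2 and 4 at an unadjusted p under 0.05, for leaf, epidermis and vascular genes), and their part in the results was not tested. A library outside the comparison stood apart: low P bud 3 replicate 3 correlated more closely with the low P bud 2 libraries (mean r = 0.969) than with the other low P bud 3 libraries (mean r = 0.924). It enters the estimate of the spread between replicates, so the counts are also given without it.

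Bud 6 differed from bud 3 in few genes. Of 22584 genes tested, 137 (0.607%) were called, meaning that the difference exceeded 2-fold with a Benjamini-Hochberg adjusted p under 0.05 in limma. Only 23 (0.102%) were higher in bud 6 and 114 (0.505%) were lower. The 23 higher genes had log2 fold changes (bud 6 over bud 3, on log2 of the normalised count + 1) of 1.06 to 3.98, with a median of 2.17. The lower genes reached -7.76, with a median of -3.35, or -3.20 over the 101 that had a value above 0 in some bud 6 library. The other 13 were listed at 0 in all 3 bud 6 libraries. The 3 bud 6 values and the 3 bud 3 values did not overlap in any called gene, as they did not in 4393 (19.5%) of all genes tested, 2121 of them with bud 6 above (9.39%) and 2272 with bud 6 below (10.1%). An unadjusted p under 0.05 was reached by 2485 genes (11%), and 10822 (47.9%) had a negative difference. The median difference over all genes was 0.01. The gene lists and families below hold only genes with a description. The 3332 such genes tested held 71 of the 137 calls, 12 higher and 59 lower. The share over all genes is therefore a low baseline for the lists, and no list was tested for enrichment. Differences in bulk tissue do not tell fewer cells of a type from less RNA per cell.

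The number of calls depended on the estimate of the spread. Without low P bud 3 replicate 3 in the fit, 361 genes were called (1.6%), 72 of them higher (0.319%) and 289 lower (1.28%), with all 137 among them. Leaving out 1 of the 6 compared libraries in turn gave 6 to 21 higher and 43 to 83 lower genes, with the fewest higher genes, 6, without bud 6 replicate 1 or without bud 3 replicate 1 and the fewest lower genes, 43, without bud 3 replicate 2. Of the 137 genes, 42 (5 higher and 37 lower) were called in all 6 of these fits, 23 in none, and all 137 kept their direction in every fit run. With precision weights for each value, 0 genes were called higher and 2 lower, Peaxi162Scf01261g00011.1 and Peaxi162Scf00521g00116.1, both without a description, so that no described gene below was called with those weights. The numbers of leave-one-out fits given below for single genes refer to these 6 fits.

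On principal components over all 24 libraries of experiment 3, the 6 libraries lay apart from the bud 2 libraries and on the side of bud 7. Component 1 held 65.4% of the variance, and bud 6 scored 88.9, 100.2 and 81.9 on it, against 55.3, 25.8 and 62.2 for bud 3. The groups did not overlap, with a difference of 42.6 (exact permutation test, two-sided p = 0.1, the smallest that 3 against 3 can give). Component 3, with 5.1% of the variance, separated the same groups by 62.0 (exact two-sided p = 0.1), with scores of 45.2, 1.23 and 4.02 for bud 6 and -44.9, -49.5 and -41.3 for bud 3. Bud 6 replicate 1 thus stood off from the other bud 6 libraries on this component. Components 2 (9.6% of the variance) and 4 (2.5%) did not separate the groups (exact permutation test, two-sided p = 0.8 and 0.7). Component 3 is shown because it did.

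**Figure D1:**
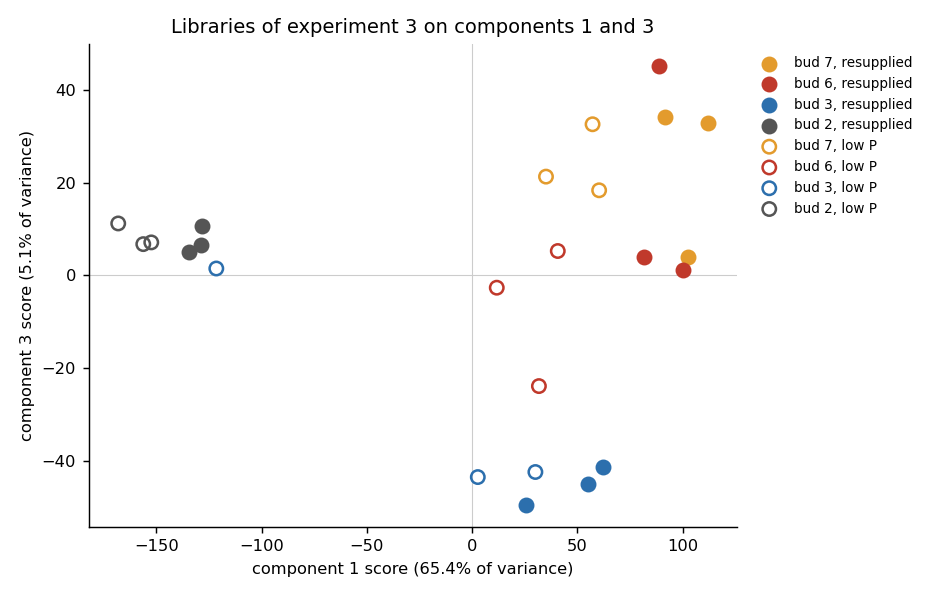
Each point is 1 of the 24 libraries of experiment 3, placed by its score on component 1 (65.4% of the variance) and component 3 (5.1%) of log2(normalised count + 1), with filled points for resupplied plants, open points for plants kept in low P and a colour per bud. Resupplied bud 6 lies to the right of and above resupplied bud 3, and 1 open low P bud 3 point, replicate 3, lies among the bud 2 libraries.

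Genes of the phosphate starvation response were among the genes higher in bud 6. Of 28 such genes tested, 2 were called, both higher (7.1% of the list, against 0.607% of all genes), and the median difference was 0.21, against 0.01 over all genes. Without low P bud 3 replicate 3 the calls were 2 higher and 1 lower, purple acid phosphatase 27 (Peaxi162Scf00046g00119.1, adjusted p = 0.0113), and in plants kept in low P they were 0 higher and 2 lower, one of them the same gene (low P log2 fold change -2.75 ± 0.53, SE, adjusted p = 0.0186). A PHT1-type gene, phosphate transporter 1 (Peaxi162Scf00829g00053.1), which encodes a transporter that carries phosphate into the cell, had 512, 225 and 569 normalised counts in bud 6, against 46.1, 27.9 and 35.6 in bud 3. Bud 6 was thus about 11-fold higher on the log2(value + 1) scale, with no overlap (log2 fold change 3.46 ± 0.48 (SE), adjusted p = 0.00106), and the gene was called in 6 of the 6 leave-one-out fits. In plants kept in low P its level was 9738 ± 2674 in bud 6 and 4937 ± 3370.1 in bud 3 (SD, n = 3 each), far above the resupplied plants in both buds, and the resupplied bud 2 and bud 7 libraries averaged 80.1 ± 17.5 and 344 ± 184. Purple acid phosphatase 17 (PAP17, Peaxi162Scf00171g00924.1), which in Arabidopsis releases phosphate from organic compounds, had 4589.5, 5031 and 12567 normalised counts in bud 6, against 964, 1457 and 1049 in bud 3. All 3 bud 6 values lay above those of bud 3, and bud 6 replicate 3 was the highest (log2 fold change 2.54 ± 0.48 (SE), adjusted p = 0.0139). The call held in 3 of the 6 leave-one-out fits and was lost without bud 6 replicate 3 (log2 fold change 2.08, adjusted p = 0.0728), without bud 3 replicate 1 (adjusted p = 0.0746) and without bud 3 replicate 3 (adjusted p = 0.0542). In low P the PAP17 level was 40555 ± 9379.9 in bud 6 and 28418 ± 9557 in bud 3 (SD, n = 3 each).

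The SPX genes followed the same order without being called. SPX3 (Peaxi162Scf00803g00014.1) had 749, 461 and 1162 normalised counts in bud 6, against 192, 281 and 341 in bud 3 (log2 fold change 1.48 ± 0.48 (SE), adjusted p = 0.212). A gene described as SPX1 (Peaxi162Scf01269g00014.1) had 2432, 1893 and 3397 normalised counts in bud 6, against 926, 1177 and 1318 in bud 3 (log2 fold change 1.15 ± 0.35 (SE), adjusted p = 0.184), and SPX2 (Peaxi162Scf00073g01422.1) had 3652, 3439 and 5756 normalised counts in bud 6, against 1719, 2371 and 2341 in bud 3 (log2 fold change 0.97 ± 0.30 (SE), adjusted p = 0.197). In these 3 genes every bud 6 value exceeded every bud 3 value. The other SPX1 gene (Peaxi162Scf00944g00034.1) overlapped between buds, at 53.2, 34.1 and 59.8 normalised counts in bud 6, against 38.2, 54 and 47.5 in bud 3. Purple acid phosphatase 12 (Peaxi162Scf00656g00311.1) had 2849, 1878 and 3879 normalised counts in bud 6, against 1097, 1266 and 1455 in bud 3 (log2 fold change 1.12 ± 0.35 (SE), adjusted p = 0.205). Phosphate transporter PHO1 homolog 1 (Peaxi162Scf00198g00043.1), from a family that exports phosphate from cells, had 3318, 2182 and 2644 normalised counts in bud 6, against 1241, 1666 and 1183 in bud 3 (log2 fold change 0.99 ± 0.25 (SE), adjusted p = 0.0913). In all, 10 of the 28 genes had bud 6 values wholly above bud 3 (9.39% of all genes did) and 2 wholly below (10.1% of all genes did). These 2 were purple acid phosphatase 27 (Peaxi162Scf00046g00119.1, log2 fold change -1.48 ± 0.53, SE, adjusted p = 0.274) and a phosphate transporter 1 gene (Peaxi162Scf00409g00422.1, -0.63 ± 0.42, SE, adjusted p = 0.653). Of the 28 genes, 26 had higher means in low P than in high P in both bud 6 and bud 3, against 41.7% of all genes tested. The list was picked by description from tables that the study built on these samples, so this direction is not an independent check of the resupply. It holds 8 genes described as phosphate transporter 1, and whether reads are shared between such copies was not tested. The phosphate genes purple acid phosphatase 12, purple acid phosphatase 27, PHO1 homolog 1 and Peaxi162Scf00409g00422.1 were named after their values had been seen.

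**Figure D2:**
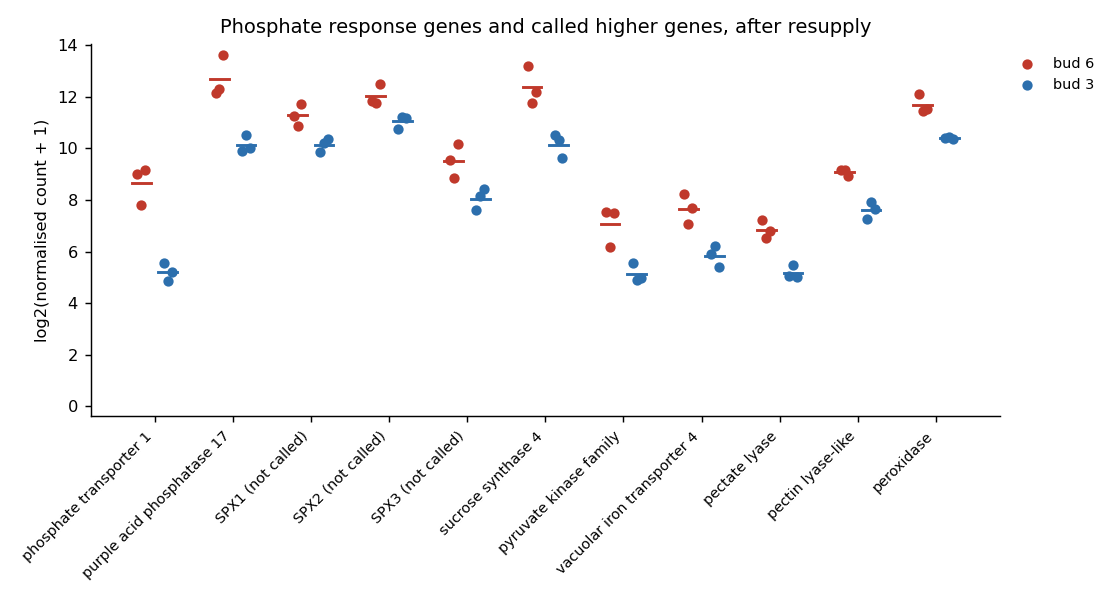
Values on the log2(normalised count + 1) scale for each of the 3 bud 6 (red, left) and 3 bud 3 (blue, right) libraries after resupply, with a bar at each mean, for 2 called phosphate genes, 3 SPX genes that were not called and 6 other called higher genes. Bud 6 lies above bud 3 without overlap in each of the 11 genes, with the widest gap for phosphate transporter 1.

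Other described genes higher in bud 6 included single genes of sugar use and iron transport. Sucrose synthase 4 (SUS4, Peaxi162Scf00474g00062.1), which cleaves sucrose for use in growing and storing tissue, had 9406, 3490.2 and 4698 normalised counts in bud 6, against 1458, 1275 and 788 in bud 3 (log2 fold change 2.24 ± 0.49 (SE), adjusted p = 0.0424). It was called in 1 of the 6 leave-one-out fits, with adjusted p values of 0.0472 to 0.306. It was the only called gene among 41 genes of sugar transport and metabolism (2.4%, against 0.607% of all genes and 71 of the 3332 described genes), whose median was -0.14, and without low P bud 3 replicate 3 the list had 1 gene higher and 3 lower. The other SUS4 gene (Peaxi162Scf00928g00232.1) overlapped between buds, at 3041, 926 and 1254 normalised counts in bud 6, against 944, 1768 and 981 in bud 3. A pyruvate kinase family gene (Peaxi162Scf00076g00811.1), of the last step of glycolysis, had 184, 70.6 and 179 normalised counts in bud 6, against 46.1, 28.8 and 30.5 in bud 3 (log2 fold change 1.92 ± 0.43 (SE), adjusted p = 0.0449). Its low P levels were 372 ± 68.3 in bud 6 and 1087 ± 559.9 in bud 3 (SD, n = 3 each), the opposite order, although the difference between the treatments was not called (log2 difference 3.36 ± 0.60, SE, adjusted p = 0.125). Vacuolar iron transporter homolog 4 (Peaxi162Scf01290g00015.1) had 299.9, 134 and 206 normalised counts in bud 6, against 59.4, 73.1 and 40.8 in bud 3 (log2 fold change 1.83 ± 0.40 (SE), adjusted p = 0.0424).

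Genes of 2 pectin enzymes and a peroxidase, put side by side after their values had been seen, were also called higher. A pectin lyase-like gene (Peaxi162Scf00763g00434.1), from a group of enzymes that act on pectin, had 565, 576 and 488 normalised counts in bud 6, against 154, 242 and 199 in bud 3 (log2 fold change 1.47 ± 0.26 (SE), adjusted p = 0.00952), with low spread in bud 6. A pectate lyase gene whose identifier carries the same scaffold number (Peaxi162Scf00763g00412.1) had 147, 90 and 109 normalised counts in bud 6, against 32.1, 43.4 and 31.5 in bud 3 (log2 fold change 1.65 ± 0.37 (SE), adjusted p = 0.0449). A peroxidase (Peaxi162Scf00328g00314.1) had 4429.6, 2770.1 and 2939 normalised counts in bud 6, against 1344, 1376 and 1313 in bud 3, with bud 3 nearly constant (log2 fold change 1.30 ± 0.27 (SE), adjusted p = 0.026). Of 25 peroxidase genes tested, 1 was called higher and 1 lower (0.102% and 0.505% of all genes were). Negative differences were found in 18 of the 25 (47.9% of all genes had them), with a median of -0.34. The lower peroxidase (Peaxi162Scf00418g01014.1) had 0, 12.5 and 19.5 normalised counts in bud 6, against 98.8, 1266 and 230.1 in bud 3 (log2 fold change -5.56 ± 1.26 (SE), adjusted p = 0.0493), and it was called in no leave-one-out fit. Bud 2 was higher still for the 3 higher genes, at 1623 ± 219, 343 ± 24.3 and 5889.7 ± 1362 (SD, n = 3 each), so that bud 3 had the lowest mean of the 4 positions. Of all 23 higher genes, 21 had a higher mean in bud 2 than in bud 3, and 12 had a bud 2 mean below that of bud 6. This reading shares its bud 6 and bud 3 libraries with the main comparison. The calls were lost easily: the pectin lyase-like gene was called in 4 of the 6 leave-one-out fits, the higher peroxidase, the iron transporter homolog and the pyruvate kinase gene in 1 each and the pectate lyase in 0. Of the 23 higher genes 12 had a description, 4 of which named no function. A gene described only as an unknown protein (Peaxi162Scf00074g01825.1) was called in 6 of the 6, at 1147, 301 and 571 normalised counts in bud 6, against 66.5, 80.4 and 70.7 in bud 3 (log2 fold change 2.99 ± 0.47 (SE), adjusted p = 0.00338).

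Most of the difference lay in genes that were lower in bud 6, and genes linked with abscisic acid, dormancy and senescence were among them. Of 21 genes of ABA synthesis, signalling and breakdown, 2 were called, both lower (9.5% of the list, against 0.505% of all genes), and 17 had negative differences (47.9% of all genes did), with a median of -0.60. A protein phosphatase 2C of the ABI1 type (Peaxi162Scf00198g00015.1), from a family that restrains ABA signalling and that ABA itself induces in Arabidopsis, had 13, 31.8 and 16.9 normalised counts in bud 6, against 171, 285 and 137 in bud 3 (log2 fold change -3.23 ± 0.63 (SE), adjusted p = 0.0174). The groups did not overlap. ABA4 (Peaxi162Scf00501g00318.1), which acts early in ABA synthesis, differed less but with little spread, at 122, 111 and 113 normalised counts in bud 6, against 301, 248 and 242 in bud 3 (log2 fold change -1.18 ± 0.23 (SE), adjusted p = 0.0174). NCED3 (Peaxi162Scf00111g00077.1), the gene of the rate-limiting step of ABA synthesis in Arabidopsis, did not pass the test, at 48.5, 79.8 and 159.7 normalised counts in bud 6, against 239, 487 and 252 in bud 3 (log2 fold change -1.84 ± 0.68 (SE), adjusted p = 0.298). AFP3 (Peaxi162Scf01312g00016.1), an ABI5-binding protein gene, and HB7 (Peaxi162Scf00074g00025.1), an ABA-induced homeobox gene in Arabidopsis, also missed it, with log2 fold changes of -2.85 ± 0.87 and -2.08 ± 0.68 (SE, adjusted p = 0.183 and 0.217). ABF3 (Peaxi162Scf00003g02333.1), a transcription factor of the ABA response, overlapped between the buds, at 1911, 1359 and 1859.7 normalised counts in bud 6, against 1776, 2004 and 1606 in bud 3. The calls of the phosphatase and of ABA4 held in 2 and 1 of the 6 leave-one-out fits, with adjusted p values of 0.0297 to 0.131 and 0.0426 to 0.104.

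Of 11 NAC transcription factor genes tested, 3 were lower in bud 6 (27.3%, against 0.505% of all genes), and the median of the list was -0.34. NAP (Peaxi162Scf00222g00624.1), which promotes leaf senescence in Arabidopsis, had 1.18, 6.81 and 1.3 normalised counts in bud 6, against 23.6, 24.3 and 17.8 in bud 3 (log2 fold change -2.74 ± 0.49 (SE), adjusted p = 0.00894). It was called in 3 of the 6 leave-one-out fits, with adjusted p values of 0.00231 to 0.0792. NAC domain containing protein 1 (Peaxi162Scf00232g01126.1) had 21.3, 35.2 and 41.6 normalised counts in bud 6, against 478, 365 and 192 in bud 3 (log2 fold change -3.31 ± 0.53 (SE), adjusted p = 0.00422) and was called in all 6 leave-one-out fits. NAC domain containing protein 3 (Peaxi162Scf00000g00481.1) had 9.47, 20.4 and 22.1 normalised counts in bud 6, against 176, 197 and 207 in bud 3 (log2 fold change -3.49 ± 0.69 (SE), adjusted p = 0.0214). Its bud 3 values hardly varied, yet it was called in none of the leave-one-out fits (adjusted p of 0.05 to 0.158).

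Among 43 homologs of bud dormancy genes that the study had listed, NAP was the 1 called gene (2.3%, against 0.505% of all genes called lower). Of the 3332 genes with a description, 59 were called lower, so 1 call in this list does not stand out. Negative differences were found in 38 of the 43 (47.9% of all genes had them), with a median of -0.59 against 0.01 over all genes. The study chose that list on these samples, so its direction is not independent evidence. Asparagine synthetase (ASN1, Peaxi162Scf00540g00013.1), a gene of dark and sugar starvation responses in Arabidopsis, had 56.7, 42.2 and 40.2 normalised counts in bud 6, against 1105, 607 and 115 in bud 3 (log2 fold change -3.19 ± 0.79 (SE), adjusted p = 0.0779). The groups did not overlap, and bud 3 varied widely. In low P the means had the opposite order, with a spread larger than their difference, at 5153 ± 3491 in bud 6 and 2721 ± 2459.9 in bud 3 (SD, n = 3 each, log2 difference between treatments -4.14 ± 1.11, SE, adjusted p = 0.827). The dormancy-associated gene DRM1 (Peaxi162Scf01100g00009.1) overlapped, at 1549, 1198 and 1211 normalised counts in bud 6, against 4156, 3322 and 1372 in bud 3 (log2 fold change -1.02 ± 0.53 (SE), adjusted p = 0.502), while HB21 (Peaxi162Scf00427g00048.1), a homeobox gene that acts in bud dormancy in Arabidopsis, did not overlap but missed the test, at 26.1, 32.7 and 35.2 normalised counts in bud 6, against 78.5, 116 and 72.3 in bud 3 (log2 fold change -1.46 ± 0.49 (SE), adjusted p = 0.238). SEN1 (Peaxi162Scf00300g00015.1), a senescence-associated gene, had 65.1, 119 and 125 normalised counts in bud 6, against 343, 569.6 and 212 in bud 3 (log2 fold change -1.80 ± 0.49 (SE), adjusted p = 0.119), and sugar transport protein 13 (Peaxi162Scf00437g00320.1), a hexose carrier, had 132, 369 and 221 normalised counts in bud 6, against 789, 876 and 699.8 in bud 3 (log2 fold change -1.82 ± 0.49 (SE), adjusted p = 0.114). Without low P bud 3 replicate 3, ASN1, SEN1 and sugar transport protein 13 were called lower, with adjusted p of 0.0268, 0.0275 and 0.0184, and 3 of the 43 homologs were called, NAP, ASN1 and 1 other (SEN1 and sugar transport protein 13 were not on that list).

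An enzyme of cytokinin breakdown and an enzyme of ethylene synthesis were lower in bud 6. Cytokinin dehydrogenase 1 (CKX1, Peaxi162Scf01296g00111.1), which breaks down cytokinin, had 14.2, 2.27 and 27.3 normalised counts in bud 6, against 344, 300 and 159 in bud 3 (log2 fold change -4.51 ± 0.65 (SE), adjusted p = 0.0016). The lowest bud 3 value was several times the highest bud 6 value, and the gene was called in all 6 leave-one-out fits. The other members of this list were not called, with log2 fold changes of -0.45 ± 0.35 for CKX5 (Peaxi162Scf00189g00922.1), -0.76 ± 0.48 for CKX3 (Peaxi162Scf00498g00427.1) and -0.25 ± 0.31 for LOG3 (Peaxi162Scf00270g00019.1), a cytokinin activating enzyme (SE, adjusted p = 0.718, 0.622 and 0.85). 1-Aminocyclopropane-1-carboxylate synthase 9 (Peaxi162Scf00381g00219.1), which makes the precursor of ethylene, had 4.73, 5.69 and 7.79 normalised counts in bud 6, against 144, 109 and 137 in bud 3 (log2 fold change -4.22 ± 0.53 (SE), adjusted p = 0.000631). Both groups were tight, and the call held in all 6 leave-one-out fits. It was the only call among 13 ethylene synthesis genes (7.7%, against 0.505% of all genes called lower), whose median was -0.50. Of 13 ethylene response factors and receptors 1 was called (7.7%, against 0.505% of all genes called lower). This was ethylene-responsive transcription factor 1B (Peaxi162Scf01560g00009.1), at 7.11, 20.3 and 30 normalised counts in bud 6, against 75.1, 135 and 112 in bud 3 (log2 fold change -2.59 ± 0.50 (SE), adjusted p = 0.0173), a call that held in 3 of the 6 leave-one-out fits (adjusted p of 0.0142 to 0.148). No auxin gene was called by limma (18 tested, 3 at an unadjusted p under 0.05, median 0.25).

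Genes known from seeds and drying tissue showed some of the widest gaps. Of 7 late embryogenesis abundant (LEA) genes, whose proteins protect cells during water loss, 2 were lower (28.6%, against 0.505% of all genes) and the median was -1.46. Over all 12 genes with such a description the same 2 were called and the median was -0.88. Both were called in all 6 leave-one-out fits. One (Peaxi162Scf00500g00067.1) was listed at 0 in all 3 bud 6 libraries, against 75.3, 104 and 34.8 in bud 3 (adjusted p = 0.0045), and it had 82 ± 62.9 in low P bud 6 and 637 ± 588 in low P bud 3 (SD, n = 3 each). The other (Peaxi162Scf75650g00004.1) had 4.74, 2.26 and 14.3 normalised counts in bud 6, against 390.4, 628 and 218 in bud 3 (log2 fold change -5.84 ± 0.79 (SE), adjusted p = 0.000907). In low P its levels were 1015 ± 589.7 in bud 6 and 1482 ± 1201 in bud 3, and the difference between treatments reached -5.35 ± 1.12 (SE) without being called (adjusted p = 0.294). Without low P bud 3 replicate 3, the low P log2 fold changes of these LEA genes were -1.97 and 0.14. Vicilin (Peaxi162Scf00092g00216.1), a seed storage protein, had 30.7, 3.42 and 16.9 normalised counts in bud 6, against 1189, 3427 and 215 in bud 3 (log2 fold change -6.14 ± 1.06 (SE), adjusted p = 0.00705). Bud 3 spread more than 10-fold and its call was lost without bud 3 replicate 2 (log2 fold change -5.22, adjusted p = 0.0637). Cysteine proteinases, which degrade storage and other proteins, were called lower in 2 of 9 genes (0.505% of all genes were), with a family median of -0.18. The first (Peaxi162Scf01342g00005.1) had 0, 0 and 23.5 normalised counts in bud 6, against 188, 66 and 692 in bud 3 (log2 fold change -6.15 ± 1.02 (SE), adjusted p = 0.00494), and the second (Peaxi162Scf00483g00321.1) had 2.36, 6.84 and 7.79 normalised counts in bud 6, against 323, 50.4 and 951 in bud 3 (log2 fold change -5.35 ± 1.07 (SE), adjusted p = 0.0216). The first was called in all 6 leave-one-out fits, and the second in 1 of the 6, where its log2 fold change was -6.50 to -4.39 and its adjusted p 0.0106 to 0.153.

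**Figure D3:**
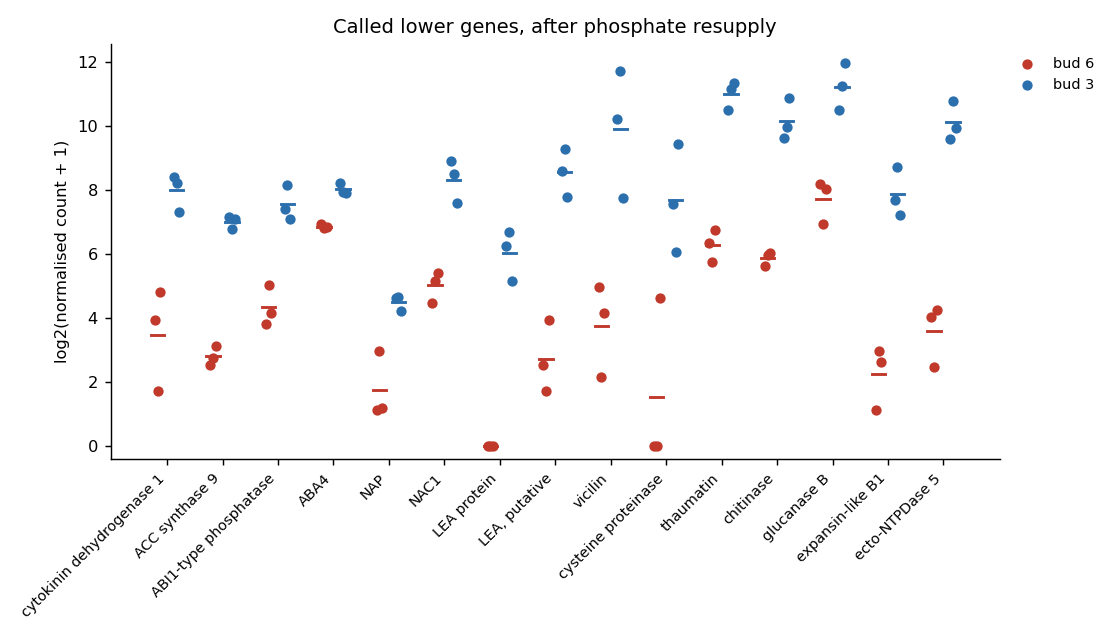
Values on the log2(normalised count + 1) scale for each of the 3 bud 6 (red, left) and 3 bud 3 (blue, right) libraries after resupply, with a bar at each mean, for 15 genes called lower in bud 6. No gene has overlapping groups, and the LEA gene drawn at 0 was listed at 0 in all 3 bud 6 libraries.

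Genes of several pathogenesis-related families were also called lower. These families were picked after the called genes had been seen, so their counts are a description only. For scale, 0.505% of all genes tested were called lower. Glucan endo-1,3-beta-glucosidases, enzymes that degrade callose and fungal walls, were lower in 5 of 16 genes tested, with called log2 fold changes of -3.80 to -2.21, although the median of the family was -0.01. Glucan endo-1,3-beta-glucosidase B (Peaxi162Scf00451g00323.1) had 291, 122 and 262 normalised counts in bud 6, against 1454, 2434 and 4037 in bud 3 (log2 fold change -3.52 ± 0.55 (SE), adjusted p = 0.00338). A pair with the same scaffold number in their identifiers, Peaxi162Scf00032g00102.1 and Peaxi162Scf00032g00106.1, were both called, with log2 fold changes of -3.80 ± 0.59 and -3.59 ± 0.75 (SE, adjusted p = 0.00328 and 0.0316). The glucosidase B gene and the first of the pair were called in all 6 leave-one-out fits, and the second of the pair in 1. Thaumatin genes were lower in 2 of 7. One of them (Peaxi162Scf00714g10016.1) had 80.6, 53.1 and 107 normalised counts in bud 6, against 1454, 2325 and 2650.2 in bud 3 (log2 fold change -4.73 ± 0.48 (SE), adjusted p = 0.00015), and the other (Peaxi162Scf00714g00017.1) had 322, 145 and 218 normalised counts in bud 6, against 994, 1504 and 1893 in bud 3 (log2 fold change -2.70 ± 0.47 (SE), adjusted p = 0.00718). Both thaumatin genes were called in all 6 leave-one-out fits. A chitinase (Peaxi162Scf00078g01219.1), 1 of 6 tested, had 48.5, 62.4 and 65 normalised counts in bud 6, against 792, 1001 and 1903 in bud 3 (log2 fold change -4.28 ± 0.53 (SE), adjusted p = 0.000631). Bud 6 varied little in this gene, and its call held in all 6 leave-one-out fits. Both genes described as wound-induced proteins were lower, with log2 fold changes of -3.46 ± 0.53 for Peaxi162Scf00016g03126.1 and -2.27 ± 0.49 for Peaxi162Scf00282g00516.1 (SE, adjusted p = 0.00328 and 0.0422), the first of which was called in all 6 leave-one-out fits and the second in none.

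Expansin-like B1 genes, relatives of the proteins that loosen cell walls, were the 2 called members of the list of 23 expansins and xyloglucan enzymes, both lower (8.7%, against 0.505% of all genes), where the median was 0.01. The first (Peaxi162Scf00301g00029.1) had 1.18, 6.78 and 5.21 normalised counts in bud 6, against 206, 422 and 149 in bud 3 (log2 fold change -5.64 ± 0.73 (SE), adjusted p = 0.000709). The second (Peaxi162Scf00301g00312.1) had 1.18, 0 and 3.9 normalised counts in bud 6, against 87.6, 240.5 and 78.1 in bud 3 (log2 fold change -5.76 ± 0.81 (SE), adjusted p = 0.00148). Both were called in all 6 leave-one-out fits. Their low P levels were 512 ± 287 in bud 6 and 1191 ± 1129 in bud 3 for the first and 133 ± 98 in bud 6 and 291 ± 166 in bud 3 for the second (SD, n = 3 each). Without low P bud 3 replicate 3, their low P log2 fold changes were -0.19 and -1.07. A xyloglucan endotransglucosylase/hydrolase 5 (Peaxi162Scf00037g01026.1) overlapped between buds, at 49400, 31018 and 30197 normalised counts in bud 6, against 28131, 31535 and 21868 in bud 3.

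A phosphatase of nucleotides and several other hydrolases, grouped here after their values had been seen, were lower in bud 6, unlike PAP17. Ectonucleoside triphosphate diphosphohydrolase 5 (Peaxi162Scf00378g00010.1), which removes phosphate from nucleotides outside the cell or in its secretory compartments, had 15.4, 4.55 and 18.2 normalised counts in bud 6, against 780, 1776 and 995 in bud 3 (log2 fold change -6.53 ± 0.70 (SE), adjusted p = 0.000186). It was called in all 6 leave-one-out fits, and bud 2 was far higher at 23539 ± 4784 (SD, n = 3). A HAD superfamily acid phosphatase (Peaxi162Scf00207g01227.1) had 7.1, 5.66 and 29.9 normalised counts in bud 6, against 266, 331 and 293 in bud 3 (log2 fold change -4.64 ± 0.80 (SE), adjusted p = 0.00718). Another HAD-like hydrolase (Peaxi162Scf00309g00516.1) was listed at 0 in all 3 bud 6 libraries, against 29.2, 26.1 and 18.7 in bud 3 (adjusted p = 0.000186). Nudix hydrolase homolog 2 (Peaxi162Scf00802g00122.1) had 9.47, 2.27 and 2.6 normalised counts in bud 6, against 33.7, 247 and 373 in bud 3, with bud 3 spread widely (log2 fold change -4.89 ± 0.93 (SE), adjusted p = 0.0155). The acid phosphatase, the HAD-like hydrolase and the nudix gene were called in 5, 6 and 2 of the 6 leave-one-out fits. None of these genes was in the phosphate starvation list.

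Further genes lower in bud 6 included regulators of other families. A homeobox-leucine zipper gene (Peaxi162Scf00767g00212.1) had 74.6, 83.6 and 109 normalised counts in bud 6, against 319, 817 and 342 in bud 3 (log2 fold change -2.33 ± 0.48 (SE), adjusted p = 0.027). It was the 1 called member of 25 homeobox, MADS and SPL genes (4.0%, against 0.505% of all genes called lower). The call held in 2 of the 6 leave-one-out fits (adjusted p of 0.0448 to 0.197). Heat stress transcription factor B-3 (Peaxi162Scf00002g02718.1) had 1.18, 1.13 and 7.82 normalised counts in bud 6, against 23.5, 24.4 and 11.9 in bud 3 (log2 fold change -2.54 ± 0.58 (SE), adjusted p = 0.0499). This call held in 1 of the 6 leave-one-out fits (adjusted p of 0.0119 to 0.319) and in 1 of the 12 fits with other settings. None of the 43 heat shock genes was called by limma (2 at an unadjusted p under 0.05, median -0.09). MYB domain protein 74 (Peaxi162Scf00779g00512.1) had 0, 0 and 3.9 normalised counts in bud 6, against 13.5, 48.6 and 25.5 in bud 3 (log2 fold change -3.97 ± 0.69 (SE), adjusted p = 0.00718) and was called in 4 of the 6. Plasma membrane ATPase 2 (Peaxi162Scf00451g00912.1), from the family of proton pumps that power uptake, had 2.36, 0 and 1.3 normalised counts in bud 6, against 31.5, 78.2 and 23.7 in bud 3 (log2 fold change -4.34 ± 0.69 (SE), adjusted p = 0.00363) and was called in all 6 leave-one-out fits. G-type lectin receptor kinases were called lower in 2 of 9 genes (0.505% of all genes were), Peaxi162Scf00381g00038.1 (-2.45 ± 0.48, SE, adjusted p = 0.0213) and Peaxi162Scf00560g00110.1 (-2.63 ± 0.50, SE, adjusted p = 0.0155), each called in 2 of the leave-one-out fits. The gene with the lowest log2 fold change of all, Peaxi162Scf00418g00810.1, is described only as an unknown protein, and it had 5.92, 4.53 and 3.91 normalised counts in bud 6, against 1051, 3346 and 539 in bud 3 (log2 fold change -7.76 ± 0.86 (SE), adjusted p = 0.000186), with a call in all 6 leave-one-out fits.

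No gene of the cell division and growth lists passed the test. None of 43 core histone, 17 DNA replication, 41 cyclin and mitosis, 14 kinesin and tubulin or 5 growth-regulating factor genes was called by limma, with or without low P bud 3 replicate 3 in the fit, or with precision weights (0, 1, 0, 1 and 1 at an unadjusted p under 0.05). Their medians were 0.23, 0.18, 0.25, 0.26 and 0.02. Every one of the DNA replication and of the kinesin and tubulin genes had a small positive difference, and 11758 of all 22584 genes had a positive one. Summed over the DNA replication genes, bud 3 replicate 3 had 240426 normalised counts, against 231417 to 249616 in bud 6. For the kinesin and tubulin genes it had 93066, against 88180 to 92961 in bud 6. The cell cycle marker CDKB1 (Peaxi162Scf00374g00620.1) had 8679, 9464 and 9559.8 normalised counts in bud 6, against 6159, 5956 and 8953 in bud 3, which overlapped (log2 fold change 0.42 ± 0.29 (SE), adjusted p = 0.667, 95% interval -0.19 to 1.03). Proliferating cell nuclear antigen 2 (Peaxi162Scf01058g00150.1), a replication clamp, had 34467, 35006 and 30113 normalised counts in bud 6, against 27701, 23943 and 32756 in bud 3 (log2 fold change 0.25 ± 0.36 (SE), adjusted p = 0.873, 95% interval -0.51 to 1.00). CYCD3;2 (Peaxi162Scf00003g02442.1), a D-type cyclin, had 883, 1462 and 1352 normalised counts in bud 6, against 1362, 1498 and 1618 in bud 3 (log2 fold change -0.31 ± 0.53 (SE), adjusted p = 0.89). Bud 3 replicate 3 reached or passed the bud 6 range in each of these 3 genes. The intervals left a 2-fold difference in either direction outside for 21 of the 41 cyclin and mitosis genes, 12 of the 17 DNA replication genes and 8 of the 43 histone genes. For the other 35 histone genes a 2-fold difference lay within the interval.

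Ribosomal protein genes differed little between the buds. Of 177 cytosolic ribosomal protein genes, 170 had an interval within 2-fold and the median was 0.16. The 1 called gene was described as 60S ribosomal protein L6 (Peaxi162Scf00751g00221.1), at 26, 27.3 and 32.5 normalised counts in bud 6, against 925, 768 and 181 in bud 3 (log2 fold change -4.10 ± 0.65 (SE), adjusted p = 0.00362), called in all 6 leave-one-out fits. Its low P levels were 1520.1 ± 898 in bud 6 and 1929 ± 1689 in bud 3 (SD, n = 3 each). Without low P bud 3 replicate 3, its low P log2 fold change was 0.41. After resupply no other member was below -0.23, and 60S acidic ribosomal protein P0 (Peaxi162Scf01313g00116.1, log2 fold change 0.24 ± 0.25, SE), for example, lay near the median.

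**Figure D4:**
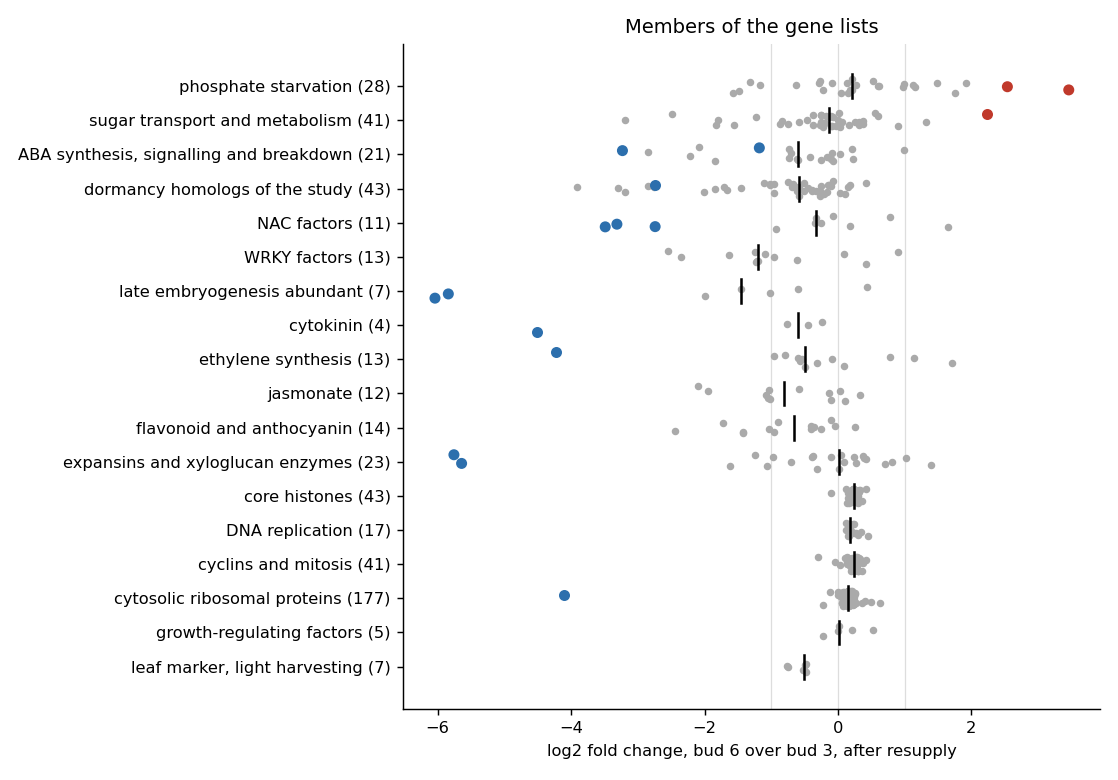
Each point is the log2 fold change of 1 list member in bud 6 over bud 3 after resupply, with called members in red (higher) or blue (lower), a black bar at each list's median, the number tested in parentheses and pale lines at 0 and at 2-fold either way. Histone, replication and cyclin genes lie close to 0. Called members such as the LEA and expansin-like B1 genes lie far from the median of their lists, while ABA4 (-1.18) lies among uncalled ABA genes.

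Some lists leaned to lower values in bud 6 with few or no calls. WRKY factors, which act in defence and senescence, had a median of -1.19, with 10 of 13 negative and 0 called by limma (10 at an unadjusted p under 0.05, or 76.9%, against 11% of all genes, and 47.9% of all genes were negative). WRKY DNA-binding protein 70 (Peaxi162Scf00732g00236.1) had 765, 386 and 826 normalised counts in bud 6, against 1801, 1367 and 1278 in bud 3 (log2 fold change -1.23 ± 0.47 (SE), adjusted p = 0.312), and WRKY DNA-binding protein 33 (Peaxi162Scf00055g01910.1) had 432, 1146 and 1310 normalised counts in bud 6, against 3456, 1456 and 1548 in bud 3 (log2 fold change -1.19 ± 0.57 (SE), adjusted p = 0.452). Neither passed the test, although their groups did not overlap. The 12 jasmonate genes had a median of -0.81 and the 14 flavonoid and anthocyanin genes one of -0.66 (13 negative), in each case with 0 called by limma (3 and 6 at an unadjusted p under 0.05). The 18 genes of nitrogen transport and LBD factors had a median of -0.43 with 0 called by limma (7 at an unadjusted p under 0.05). With precision weights no member of these 4 lists was called either. All 7 leaf markers were negative (median -0.51) with overlapping groups. For instance, chlorophyll a-b binding protein 50 (Peaxi162Scf00603g00011.1) had 14182, 33026 and 25489 normalised counts in bud 6, against 56225, 37339 and 27160 in bud 3 (log2 fold change -0.75 ± 0.48 (SE), adjusted p = 0.624). In these markers bud 3 replicate 1 was the highest and bud 6 replicate 1 the lowest of the 6 libraries. Without low P bud 3 replicate 3 in the fit, 1 WRKY and 1 flavonoid gene were called lower and the jasmonate and nitrogen lists had no calls.

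The same positions in plants left in low P gave 164 calls (0.726%), 9 higher (0.0399%) and 155 lower (0.686%). Those libraries are separate from the resupplied ones. Of the 114 genes lower in resupplied bud 6, 44 were called lower in low P as well (38.6% of the 114 and 28.4% of the 155), and 1 of the 23 higher genes was called higher (4.35% of the 23 and 11.1% of the 9). The median low P difference was -2.01 over the 114 genes and 0.68 over the 23. The low P counts leaned on single libraries: without low P bud 3 replicate 3 they were 21 higher and 64 lower, and without low P bud 3 replicate 1, which leaves replicate 3 in, 229 and 736. Examples called in both treatments were the thaumatin gene Peaxi162Scf00714g10016.1 (low P log2 fold change -3.71 ± 0.48, SE, adjusted p = 0.000693) and ectonucleoside triphosphate diphosphohydrolase 5 (Peaxi162Scf00378g00010.1, -5.48 ± 0.70, SE, adjusted p = 0.000693). CKX1 (Peaxi162Scf01296g00111.1) was not called in low P, at 39.6 ± 19.1 in bud 6 and 284 ± 254 in bud 3 (SD, n = 3 each, log2 fold change -2.53 ± 0.65, SE, adjusted p = 0.0804).

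A test of whether the bud 6 to bud 3 difference itself changed with resupply called no gene by limma (0 of 22584), with 1277 genes at an unadjusted p under 0.05 and a smallest adjusted p of 0.125. A difference past the threshold in one treatment and not in the other is therefore not shown to differ between them, and this holds for the expansin-like B1, LEA, ASN1 and pyruvate kinase genes above. No call in this test was made with precision weights, with the replicate block or with the other scalings, while 1 or 2 genes were called under 5 other settings.

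In experiment 1, where the plants had never been starved, the same positions were far more different: 8111 of 22363 genes tested were called (36.3%), 3286 higher (14.7%) and 4825 lower (21.6%) in bud 6. The tables of the experiments were normalised separately, so only lists and each fold change can be set side by side, and the difference between the experiments was not tested. By the paper, the experiments were also sequenced apart, at different read lengths and depths, and processed with different pipeline versions. Past starvation cannot be told apart from these differences here. Of the 111 lower genes that could be tested there, 109 were lower in experiment 1 too (98.2%, or 2.26% of its 4825), with a median of -5.46. Of the 18 higher genes tested there, 0 were called higher, 6 were called lower and 12 were not called, with a median of -0.75. Phosphate transporter 1 (Peaxi162Scf00829g00053.1) was too low to be tested in experiment 1, with means of 1.99 and 1.96 normalised counts in bud 6 and bud 3, where no library of these groups came from starved plants. CDKB1 (Peaxi162Scf00374g00620.1) was higher in bud 6 there (log2 fold change 2.74 ± 0.18, SE, adjusted p = 1.67e-10), as were all 43 core histone, 17 DNA replication and 41 cyclin and mitosis genes. CKX1 (Peaxi162Scf01296g00111.1) and NAP (Peaxi162Scf00222g00624.1) were lower there, with log2 fold changes of -5.67 ± 0.24 and -6.05 ± 0.75 (SE, adjusted p = 1.88e-12 and 6.05e-07).

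**Figure D5:**
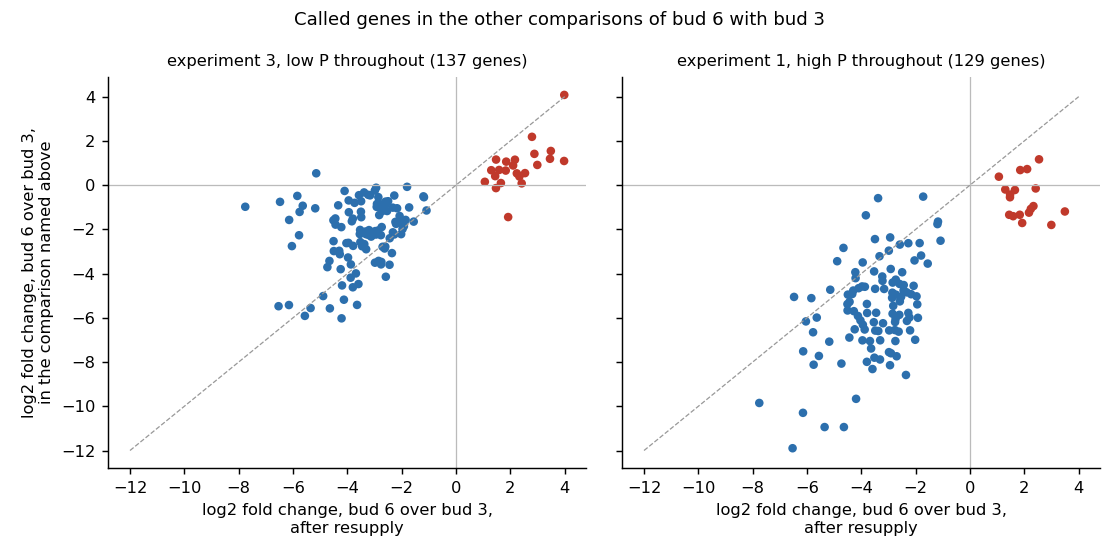
For the genes called in bud 6 over bud 3 after resupply (red higher, blue lower), the log2 fold change after resupply (x axis) is plotted against that of the same buds in low P (left panel, 137 genes) and in the constant high P of experiment 1 (right panel, the 129 genes tested there), with a dashed line where both are equal. Nearly all blue points lie below 0 in both panels, and the red points lie on both sides of 0 in the right panel.

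Bud 7 and bud 2 of the resupplied plants, which share no library with the comparison, gave a further reading of these genes, chosen after the results had been seen. By the plant numbers in the paper, pools of different buds shared plants, so this reading is not independent of the comparison. Of the 114 genes lower in bud 6, 112 were also lower in bud 7 than in bud 2 (19.3% of all genes were), with a median of -5.87. Of the 23 higher genes, 6 were higher in bud 7 than in bud 2 (13.4% of all genes were) and 6 were lower. PAP17 (Peaxi162Scf00171g00924.1) averaged 10606 ± 6869 in bud 7 and 865 ± 115 in bud 2, and SUS4 (Peaxi162Scf00474g00062.1) averaged 4554 ± 2319.5 in bud 7 and 13243 ± 4245 in bud 2 (SD, n = 3 each). PAP17 was thus higher and SUS4 lower in bud 7 than in bud 2 (log2 fold changes 3.27 ± 0.48 and -1.61 ± 0.49, SE, adjusted p = 2.22e-05 and 0.00776). Side by side with the main comparison, and sharing libraries with it, bud 7 against bud 6 gave 0 calls (limma, 167 genes at an unadjusted p under 0.05), and bud 3 against bud 2 gave 6713 (29.7%).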

How the data were processed

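Buds of experiment 3 were compared as labelled, and the libraries of both experiments came from buds pooled per replicate, so p-values measure the spread between pools. The authors trimmed the reads with Trim Galore, used STAR and Salmon through nf-core/rnaseq against the Petunia axillaris genome, and deposited gene counts divided by DESeq2 factors as 1 table per experiment (a normalised signal, not whole counts). Reads of petunia hybrids may map less well to the genome of another species, and copies of a gene may share reads. Within the 6 libraries compared, 92.2 to 100% of the low values lay within 0.1 of a whole multiple of 1 read, but the step varied by gene, so whole reads were not recovered, no count model was run and counting intervals are not given.

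In each experiment, genes whose 24 libraries averaged 10 or more were tested with limma 3.58.1 (R 4.3.3) on log2(value + 1), which understates changes of low genes, with a mean for each of the 8 groups, a variance trend and Benjamini-Hochberg adjustment over all tested genes. Calls needed a change above 2-fold and an adjusted p under 0.05. The script was tested on simulated data. Figures were drawn with Python 3.11.15 and matplotlib 3.10.9.

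Descriptions and gene lists came from tables that the study built on these samples, and only gene IDs and descriptions were taken from them. The members, lists and named genes were chosen with earlier results of these data known. Named were the 10 called genes with a description naming a protein or family, an average of 100 or more in the bud with the higher level and the largest change in each direction, up to 2 called and 2 abundant members of each list, the genes the study names, and the markers. Others are named where the text says so, or were picked as members of families seen among the called genes. Of the 137 called genes 71 had a description, as had 14.8% of all genes tested. Described genes were thus called more often than all genes, and the share over all genes is a low baseline for the lists and families. In experiment 1, buds with the same replicate number in high P deviated together (r = 0.361, 0.164 and 0.299), so the numbers may pair those libraries. Alternatives tried were other pseudocounts, filters, scalings, weights, a replicate block, fewer libraries and leaving out each replicate.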

Additional observations from a re-analysis of the deposited data

How the results depend on the processing

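For bud 6 against bud 3 after resupply (23 genes higher and 114 lower), a pseudocount of 5 gave 14 higher and 75 lower, no filter on low values 14 higher, a mean of at least 50 gave 15 higher, upper-quartile scaling 15 higher, quantile normalization 44 higher and 74 lower (37.3% of calls higher, against 16.8%), a fit to only the 6 libraries 14 higher and 70 lower, precision weights 0 higher and 2 lower, and a test against a 2-fold threshold 2 higher and 19 lower. Leaving out 1 replicate gave 6 to 21 higher and 43 to 83 lower. Without low P bud 3 replicate 3, an alternative chosen after seeing the data, 72 were higher and 289 lower. With the replicate number as a block, 24 were higher and 103 lower. Same-numbered bud 6 and bud 3 libraries did not deviate together (r = 0.0747, -0.034 and 0.0557). By the plant numbers in the paper, pools of different buds shared plants. With 3 pools per group these r values cannot decide whether the replicate number marks the pools that did so.

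In low P (9 higher and 155 lower), a fit to only the libraries compared gave 0 higher and 0 lower, precision weights 3 higher and 36 lower, quantile normalization 14 higher, the replicate block 14 higher, and the test against a 2-fold threshold 0 higher and 16 lower. Leaving out 1 replicate gave 2 to 229 higher and 44 to 736 lower. For the difference between treatments (0 higher and 0 lower), no filter on low values and no variance trend each gave 1 higher, and leaving out 1 replicate gave 0 to 1 higher and 0 to 2 lower. In experiment 1 (3286 higher and 4825 lower), the test against a 2-fold threshold gave 1772 higher and 3015 lower, and the replicate block 3297 and 4870. The score difference on component 1 was 36.4 with genes of a mean of at least 50, against 42.6. For the 76 named genes, 1191 values over all alternatives kept their direction and side of the threshold, 240 lost the call, 6 gained it, 6 of uncalled genes near 0 changed sign, and 0 of called genes did. The causes of these shifts were not tested. Genes of low counts are the most limited by depth, and the bud 6 libraries were the shallower ones.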
